A study of Mus musculus with 31 samples.

Results

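Mitochondrial ribosomal proteins are encoded in the nucleus, made in the cytosol and imported into mitochondria, where they assemble with mitochondrial rRNA into the large and small subunits of the mitoribosome. The mitoribosome translates the few mRNAs of mitochondrial DNA, all of which encode subunits of the respiratory chain and ATP synthase. Blood stem cells are known for low respiratory activity and mature neutrophils for few mitochondria and a mainly glycolytic metabolism, so the expression of this machinery is of interest along the myeloid lineage. Every gene whose symbol began with Mrpl (large subunit) or Mrps (small subunit) followed by a number in the probe annotation of the array was taken as a member. This gave 77 genes, 48 Mrpl and 29 Mrps, of the 19939 genes measured. They were represented by 85 probes, and 8 of the genes had a pair of probes. A further probe pairs with Mrpl53 and Ccdc142 and was not used. By the subunit lists used here, 30 members are large subunit proteins with a bacterial counterpart, 20 are large subunit proteins specific to mitochondria, 17 are small subunit proteins with a bacterial counterpart and 9 are small subunit proteins specific to mitochondria. Mrps36 is in none of these lists, since its product is now known as a component of the 2-oxoglutarate dehydrogenase complex.

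RNA came from 9 populations sorted from the bone marrow of wild-type C57BL/6 mice, amplified from 20000 cells a sample and hybridised to 31 arrays. No population was treated, and age and sex were not used here. All stem cell and multipotent populations were lineage-negative and positive for cKit and Sca1. Those without Flk2 were split by CD48 and CD150 into long-term haematopoietic stem cells (LT-HSC, CD48- CD150+, 4 arrays), short-term stem cells (ST-HSC, CD48- CD150-, 3 arrays) and the multipotent progenitors MPP2 (CD48+ CD150+, 3 arrays) and MPP3 (CD48+ CD150-, 3 arrays). MPP4 cells carried Flk2 (5 arrays). Common myeloid progenitors (CMP, 3 arrays) and granulocyte-macrophage progenitors (GMP, 4 arrays) were lineage-negative, cKit+ and CD34+, without and with the Fc gamma receptor. Pre-granulocytes (PreGr, 3 arrays) and granulocytes (Gr, 3 arrays) were Mac1+ with intermediate and high Gr1. The labels call replicates biological and name no animals or pools, and LT-HSC and GMP arrays also served a related study. The comparisons follow the branches from stem cell to granulocyte.

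The arrays fell into 5 sets that the labels do not name, seen in the medians of the deposited values and in values identical between arrays. Set 1 held LT-HSC 1 to 3. Set 2 held LT-HSC 4, MPP3 3, MPP4 4, MPP4 5 and GMP 4. Set 3 held ST-HSC, MPP2 and the other MPP3 arrays, set 4 held MPP4 1 to 3 and CMP, and set 5 held GMP 1 to 3, PreGr and Gr. Levels below are log2 values after quantile normalization of all arrays. A change is the log2 difference between 2 populations in a limma fit with the set as a block, given with its standard error (SE), and called means that its p, after Benjamini-Hochberg adjustment over all genes tested, was under 0.05. Of the 10 comparisons, MPP2, MPP3 and ST-HSC among themselves, CMP against MPP4, PreGr against GMP and Gr against PreGr rest on arrays of 1 set. Comparisons with LT-HSC rest on the single array LT-HSC 4, set against MPP3 3 alone for MPP3 and against MPP4 4 and MPP4 5 for MPP4. ST-HSC against LT-HSC also takes in the difference of MPP3 3 from MPP3 1 and MPP3 2. GMP against CMP rests on GMP 4 and on the difference between the MPP4 arrays of sets 4 and 2. The samples are bulk RNA, so fewer cells of a type and less RNA per cell cannot be told apart. The granulocyte markers (6 of 6 called higher in PreGr than in GMP, then 5 of 6 higher in Gr) fitted the labels. Markers of B and plasma cells were called higher in PreGr than in GMP in 4 of 6. Their summed linear level was 1771 to 3119 in PreGr against 938 to 1093 in GMP. In MPP3 their median level was 8.93 to 9.04 and their summed level 3800 to 5048. The summed level was 713 to 773 in LT-HSC and 825 to 984 in ST-HSC, and 4 of 6 were called higher in MPP3 than in ST-HSC. In the T and NK list, 3 of 6 were called higher in PreGr, with a summed level of 1838 to 2905 against 2893 to 3689 in GMP. Array values have no true zero, so no marker is at 0, and the part of these cells in the results was not tested.

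Promoter sequence is shown for 4 members that carry the results below: Mrps27 and Mrps26, whose levels fell most at the pre-granulocyte or granulocyte step among those with an entry, Mrps11, which led the rise to CMP and lies head to head with Mrpl46, and Mrpl33, which rose in granulocytes. The sequences are RefSeq promoter windows of GRCm38.p6, each 300 bases long from 250 before to 50 after the annotated start, and 68 of the 77 members had one. These motifs are cores that such factors are known to bind, and capitals mark the ETS family core CCGGAAG, the YY1 core AAGATGGC and the short NRF1 half-site pair GCATGCGC, on either strand. The windows are chr13:99344536-99344835 (+) for Mrps27, chr2:130563507-130563806 (+) for Mrps26, chr7:78782881-78783180 (+) for Mrps11 and chr5:31613701-31614000 (+) for Mrpl33.
Mrps27: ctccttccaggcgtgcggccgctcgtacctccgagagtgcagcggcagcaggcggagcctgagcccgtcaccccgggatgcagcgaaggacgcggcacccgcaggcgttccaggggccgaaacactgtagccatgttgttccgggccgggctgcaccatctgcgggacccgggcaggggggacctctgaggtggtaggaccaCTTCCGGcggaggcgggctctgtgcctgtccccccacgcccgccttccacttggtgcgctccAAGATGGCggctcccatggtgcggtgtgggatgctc
Mrps26: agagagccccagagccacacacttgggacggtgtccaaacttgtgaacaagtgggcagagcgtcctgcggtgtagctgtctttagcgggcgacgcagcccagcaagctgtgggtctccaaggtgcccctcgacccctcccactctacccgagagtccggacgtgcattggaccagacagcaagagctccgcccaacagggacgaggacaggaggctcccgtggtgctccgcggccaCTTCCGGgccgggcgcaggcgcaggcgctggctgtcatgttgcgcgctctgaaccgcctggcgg
Mrps11: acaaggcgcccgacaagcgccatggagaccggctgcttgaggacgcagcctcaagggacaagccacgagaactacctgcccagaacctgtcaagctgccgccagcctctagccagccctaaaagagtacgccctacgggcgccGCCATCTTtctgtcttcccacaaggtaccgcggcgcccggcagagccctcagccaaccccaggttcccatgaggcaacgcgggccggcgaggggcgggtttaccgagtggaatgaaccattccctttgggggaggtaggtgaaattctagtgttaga
Mrpl33: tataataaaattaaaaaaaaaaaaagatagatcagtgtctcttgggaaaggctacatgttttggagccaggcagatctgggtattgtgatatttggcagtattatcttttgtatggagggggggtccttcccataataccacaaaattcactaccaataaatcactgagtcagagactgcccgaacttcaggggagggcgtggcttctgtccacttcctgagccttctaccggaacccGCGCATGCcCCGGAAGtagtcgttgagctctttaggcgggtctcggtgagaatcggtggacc

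The members' windows held some short motifs more often than promoters at large. The ETS core was present in 24 of 68 (35.3%), against 12.5% of the windows of 15563 genes on the array and 35.7% of 42 cytosolic ribosomal protein genes. The YY1 core was present in 12 (17.6%), against 3.4% of all windows and 2.4% of those of cytosolic ribosomal protein genes. GCATGCGC was present in 8 (11.8%), against 3.9% of all windows, and its longer form, the same letters with GC before them, in 3 (4.4%), against 1.5%. At least 1 of the ETS, YY1 and short NRF1 motifs lay in 36 windows, and Mrps27 was 1 of 3 with both ETS and YY1 cores. The GC box GGGCGG was in 34 of 68 members and 49.9% of all windows, the E-box CACGTG was in 7.4% against 8.4%, and TATAAA was in 5.9% against 12.1%. Mrpl46 and Mrps11 are transcribed away from each other on chromosome 7, with annotated starts 42 bases apart, so their windows overlap. Mrps12 and Sars2, the mitochondrial seryl-tRNA synthetase, are arranged likewise, with starts 147 bases apart. These matches describe letters and not bound sites.

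The median level of the members was on average highest in GMP arrays and lowest in granulocytes. No member, however, was called between GMP and CMP once the array set was a block. The median level over the 77 members was 9.41 ± 0.0998 (SD, n = 4) in GMP, 9.18 ± 0.0155 (n = 3) in CMP, 9.17 ± 0.138 (n = 3) in MPP2, 9.01 ± 0.231 (n = 4) in LT-HSC, 8.97 ± 0.02 (n = 3) in PreGr, 8.94 ± 0.115 (n = 3) in MPP3, 8.87 ± 0.13 (n = 5) in MPP4, 8.84 ± 0.0841 (n = 3) in ST-HSC and 8.43 ± 0.254 (n = 3) in Gr. Neighbours from CMP to ST-HSC in this order lay within their spread, whereas every Gr array except Gr 1 was below every other array. The lowest GMP array, at 9.27, lay below the highest MPP2 array, at 9.29. Gr 1 reached 8.70, above MPP4 4 at 8.66, while Gr 2 was at 8.39 and Gr 3 at 8.196. GMP had the highest mean of the 9 populations for 42 members (10.07% of all genes), CMP for 12 (11.44%), MPP2 for 10 (13.1%), PreGr for 5 (8.94%), LT-HSC for 3 (16.05%) and Gr for 3 (23.93%). ST-HSC and MPP3 had it for 1 each. Gr had the lowest mean for 50 members (21.79% of all genes) and ST-HSC for 13 (15.51%).

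**Figure D1:**
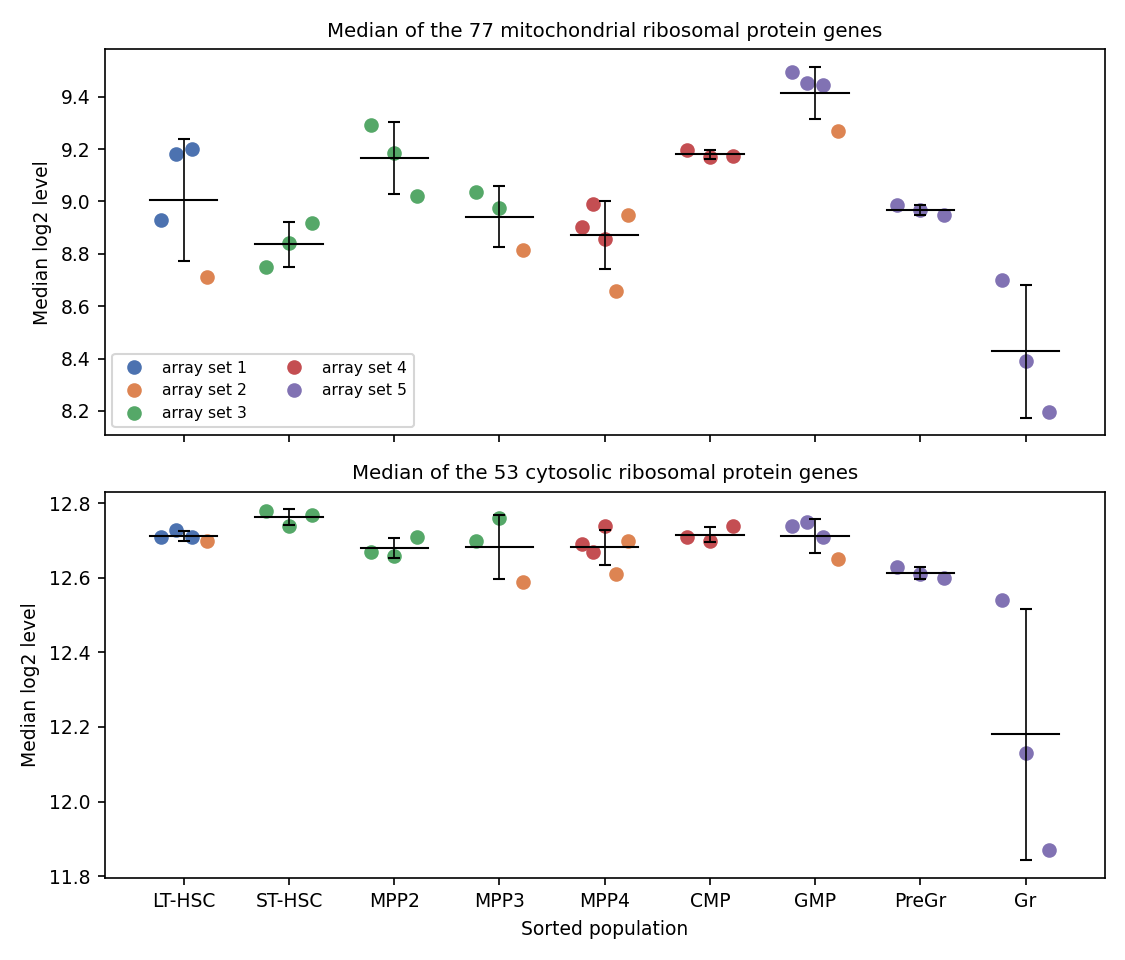
Median log2 level of the 77 members (top) and of 53 cytosolic ribosomal protein genes (bottom) in each array (points, coloured by array set), by sorted population; bars show the mean and SD over arrays. The 4 GMP arrays lie between 9.27 and 9.49 in the upper panel and the 3 Gr arrays between 8.196 and 8.70, and the Gr arrays keep the same order in the lower panel.

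Levels within single sets are free of offsets between sets, but no set held both GMP and CMP arrays. In set 5 GMP was highest for 70 members and Gr lowest for 71, and 68 members followed the order GMP, PreGr, Gr. In 70 members all 3 Gr arrays lay below all 3 GMP arrays of that set, which held for 27.1% of all genes. In set 4 CMP was above MPP4 for 71 members, and for 11037 of all 19939 genes. In set 3 MPP2 was highest for 56 members and ST-HSC lowest for 55. In set 2, with 1 or 2 arrays a population, GMP 4 was highest for 57 members and LT-HSC 4 lowest for 40. The counts by rank or order in sets 2, 3 and 5 were not made over all genes. They therefore do not single out the members. LT-HSC 4 was the lowest of the 4 LT-HSC arrays for 64 members, with a member median of 8.71 against 8.93 to 9.20 in the arrays of set 1, so the level of LT-HSC among the populations depends on which arrays are read.

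**Figure D2:**
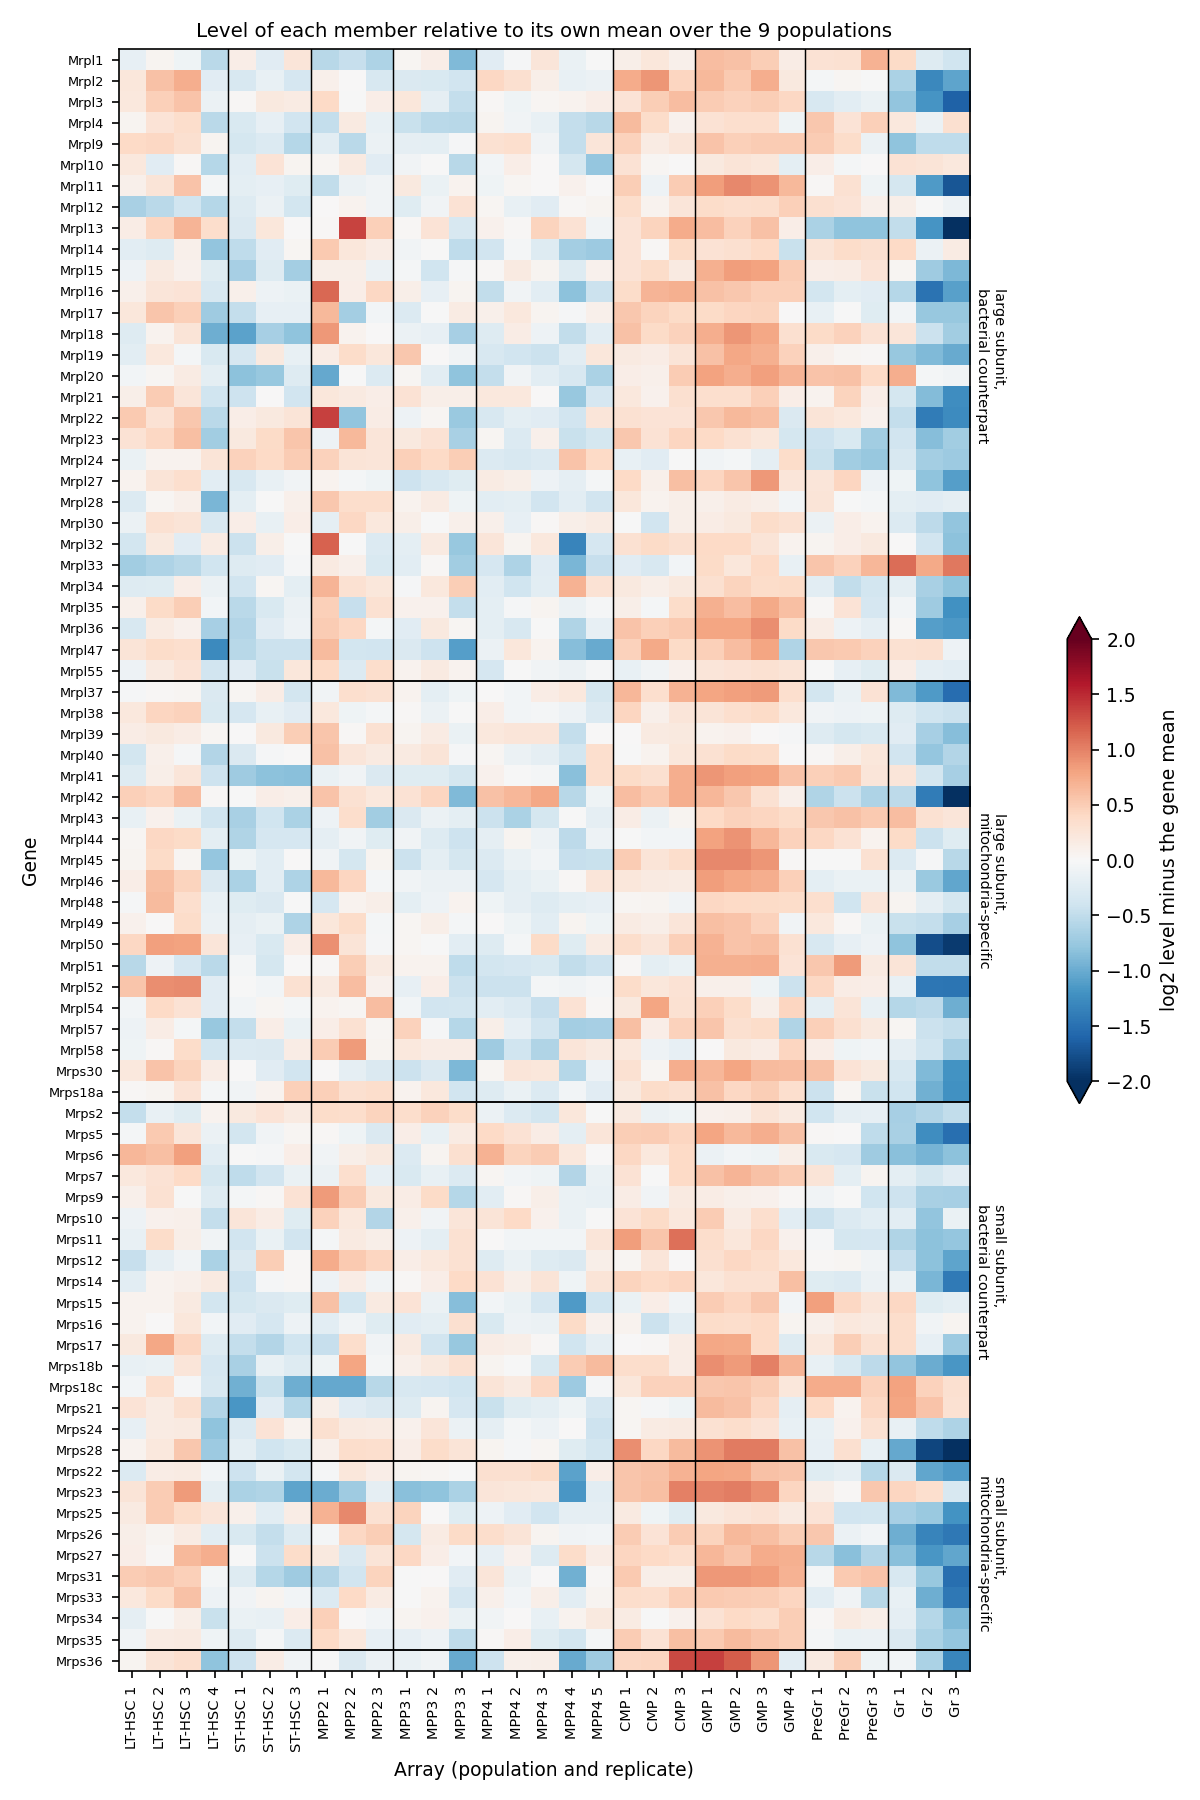
Log2 level of each member in each of the 31 arrays minus that gene's mean over the 9 populations (colour scale from -2 to 2), with genes in rows by subunit list and arrays in columns by population. GMP columns are above the gene mean in most rows and Gr 2 and Gr 3 below it, while Mrpl33 is highest in the Gr arrays.

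**Figure D3:**
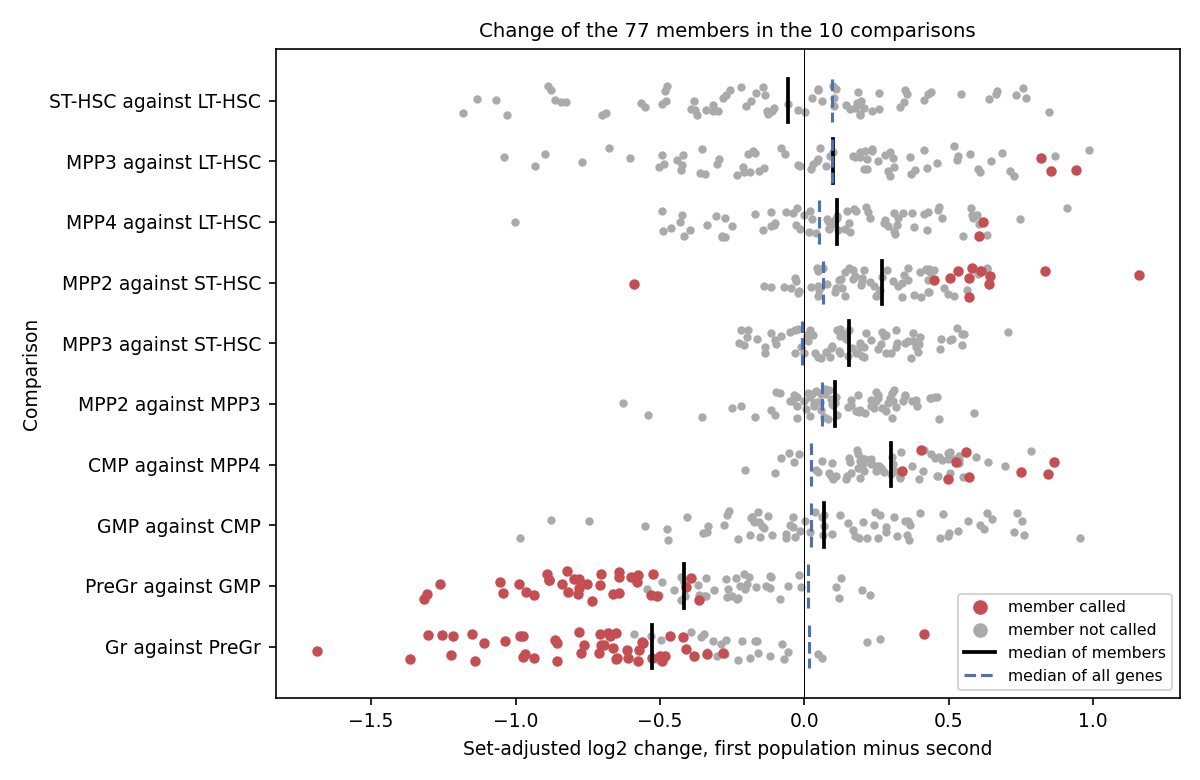
Set-adjusted log2 change of each of the 77 members (points, coloured where called) in the 10 comparisons, with the median of the members (solid line) and of all 19939 genes (dashed line). Called members lie almost wholly above 0 for MPP2 against ST-HSC and CMP against MPP4, and below 0 for both granulocyte steps.

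In pre-granulocytes, genes of both mitoribosomal subunits were lower than in GMP. Of the 77 members 35 were called lower and none higher, where 19% of all genes were called, 11% lower and 7.99% higher. The median change of the members was -0.42, against 0.01 over all genes. A change above 0, up to 0.23, was seen in 5 members, against 10463 of all 19939 genes with a change above 0. In 43 members every PreGr array lay below every GMP array, which held for 16.7% of all genes. Markers of eosinophils, basophils and mast cells had a summed linear level of 4819 to 9220 in PreGr and 2389 to 4126 in GMP, with 2 of 5 called higher, and macrophage markers 1558 to 1972 and 745 to 1116, with 1 of 5 called higher. Their part in the result was not tested. Members called lower were 12 of 30 bacterial-type and 9 of 20 mitochondria-specific large subunit genes, and 8 of 17 bacterial-type and 5 of 9 mitochondria-specific small subunit genes. Without a set block 28 members were called lower, 27 of them among the 35, where 9.56% of all genes were called lower.

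Mrps27, a pentatricopeptide repeat protein of the small subunit, changed most at this step. Its level was 7.24, 7.12, 7.32 and 7.29 in GMP and 6.01, 5.73 and 5.99 in PreGr. The groups did not overlap, and the change was -1.32 (SE 0.178, adjusted p = 6.76e-06). Mrpl13, a large subunit protein with a bacterial counterpart, was at 9.81, 9.65, 9.79 and 9.32 in GMP and 8.56, 8.38 and 8.39 in PreGr. All PreGr arrays were again below all GMP arrays (change -1.31, SE 0.314, adjusted p = 0.00384). Mrps18b, 1 of 3 mammalian versions of the bacterial S18 protein, was at 9.52, 9.45, 9.61 and 9.28 in GMP and 8.44, 8.29 and 8.06 in PreGr. Its change was -1.26 (SE 0.178, adjusted p = 1.25e-05). The 2 other versions did not share a pattern: Mrps18a, which sits in the large subunit, was called lower too, and Mrps18c was not. The changes of the other named members were -1.06 for Mrpl42, -1.04 for Mrps22, -0.99 for Mrps28, -0.96 for Mrps36 and -0.93 for Mrpl46, with adjusted p between 0.000375 and 0.00827. Mutations of MRPS22 cause a human mitochondrial disease. The call for Mrps36 was lost without PreGr 3 (adjusted p = 0.0517), and the calls for Mrpl42 and Mrps36 were lost without the set block (adjusted p = 0.0505 and 0.296).

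Granulocytes were lower again in genes of both subunits. Compared with PreGr, 47 members were called lower and 1 higher, where 26.5% of all genes were called, 14% lower and 12.5% higher. Their median change was -0.53, against 0.02 over all genes. The called genes comprised 15 of 30 bacterial-type and 15 of 20 mitochondria-specific large subunit genes, and 10 of 17 and 6 of 9 small subunit genes. In 39 members every Gr array lay below every PreGr array, against 18.8% of all genes. Leaving out Gr 3 reduced the calls to 26 members, and 34 of the 47 were called without a set block, where 11.2% of all genes were called lower.

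Mrps28, a small subunit protein, changed most, with 9.32, 9.81 and 9.34 in PreGr and 8.47, 7.65 and 7.29 in Gr. No Gr array reached any PreGr array, and the change was -1.69 (SE 0.199, adjusted p = 9.51e-07) after a change of -0.99 from GMP to PreGr. Mrps26, a small subunit protein specific to mitochondria, was at 10.01, 9.36 and 9.42 in PreGr and 8.50, 8.15 and 8.04 in Gr. It changed by -1.36 (SE 0.163, adjusted p = 1.08e-06) and kept its GMP level of 9.92, 10.13, 10.08 and 9.96 in 1 of the 3 PreGr arrays. Mrpl50, specific to the mitochondrial large subunit, was at 8.81, 8.97 and 9.02 in PreGr and 8.33, 7.36 and 7.21 in Gr. Its change was -1.30 (SE 0.235, adjusted p = 0.000166), and Gr 1 lay between the PreGr arrays and the other Gr arrays. The changes were -1.25 for Mrpl52, -1.22 for Mrpl22, -1.22 for Mrps31, -1.15 for Mrps30 and -1.14 for Mrpl11, with adjusted p between 4.68e-05 and 0.0042. Of these, Mrpl22 lines the exit tunnel of the large subunit, Mrpl11 belongs to the stalk base, and Mrps30 is a large subunit protein in spite of its name. Each of these calls, and those of Mrps28, Mrps26 and Mrpl50, held when any single array was left out.

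**Figure D4:**
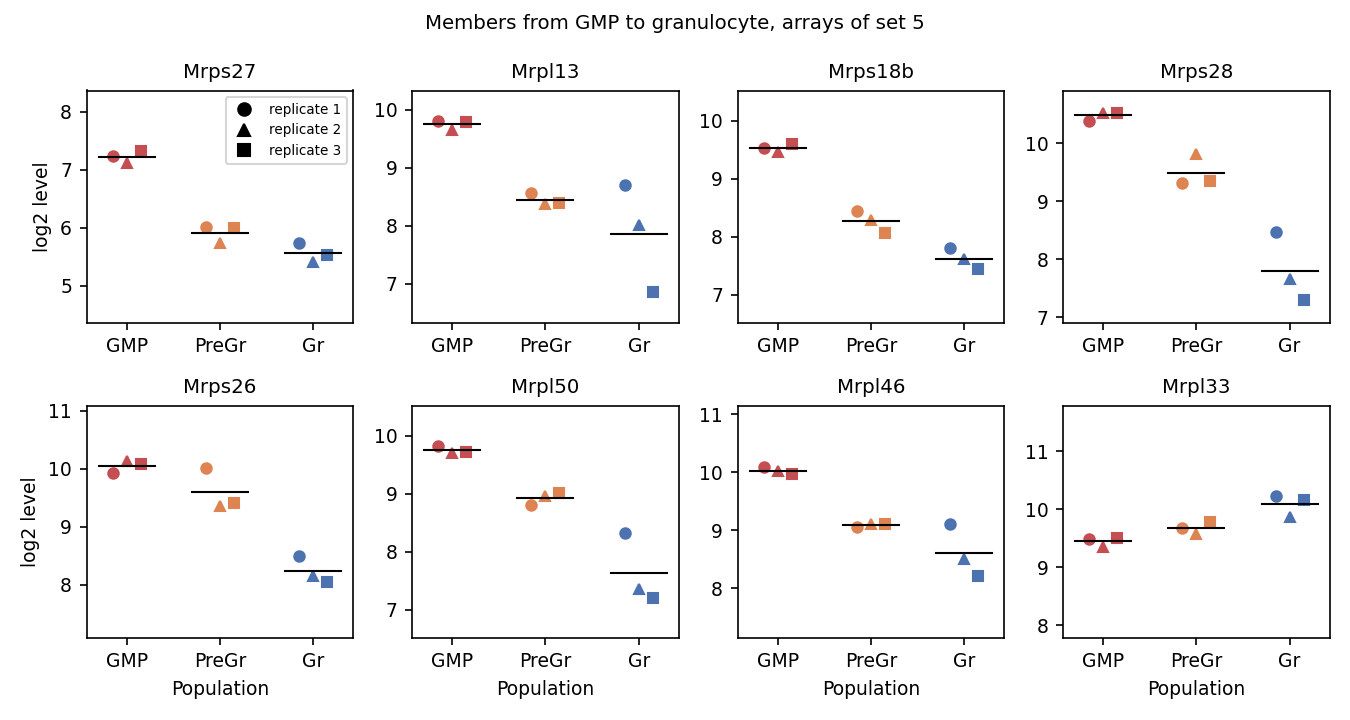
Log2 level of 8 members in the arrays of set 5, by population; symbols give the replicate and lines the mean of 3 arrays, and each panel spans 4 log2 units. The mean of each of the 7 members other than Mrpl33 is lower in Gr than in GMP, and Mrpl33 lies at 9.34 to 9.51 in GMP and 9.87 to 10.22 in Gr.

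Mrpl33 was the member called higher in granulocytes, and it is described here because its value stood out. It encodes a small protein of the large subunit with a bacterial L33 counterpart. Its level was 9.49, 9.34, 9.51 and 8.97 in GMP, 9.67, 9.58 and 9.78 in PreGr and 10.22, 9.87 and 10.16 in Gr, with no overlap between PreGr and either neighbour. The step from GMP to PreGr was 0.23 (SE 0.136, adjusted p = 0.305) and was not called. The step from PreGr to Gr was 0.41 (SE 0.136, adjusted p = 0.0264). The call was lost without the set block (adjusted p = 0.112) and without PreGr 1, PreGr 2, Gr 1 or Gr 3 in turn (highest adjusted p = 0.104). In LT-HSC the level was 8.41, 8.50, 8.56 and 8.71, below every granulocyte array. Mrps21 and Mrpl10 also had their highest mean in Gr but were not called: Mrps21 was at 11.06, 10.74 and 11.07 in PreGr and 11.45, 11.23 and 10.97 in Gr, and Mrpl10 at 9.13, 8.96 and 9.01 in PreGr and 9.29, 9.25 and 9.21 in Gr.

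Across both steps 57 of 77 members were called lower at least once, against 19.9% of all genes. There were 25 called at both, against 5.14% of all genes: Mrpl2, Mrpl3, Mrpl11, Mrpl15, Mrpl16, Mrpl19, Mrpl35, Mrpl36, Mrpl37, Mrpl38, Mrpl42, Mrpl45, Mrpl46, Mrpl49, Mrpl50, Mrps2, Mrps5, Mrps6, Mrps11, Mrps18a, Mrps18b, Mrps28, Mrps33, Mrps35 and Mrps36. Another 10 were called at the first step and 22 at the second, and whether their change differed between the steps was not tested, since both share the PreGr arrays. The 20 members called lower at neither were Mrpl4, Mrpl10, Mrpl12, Mrpl14, Mrpl17, Mrpl20, Mrpl28, Mrpl32, Mrpl33, Mrpl39, Mrpl43, Mrpl47, Mrpl48, Mrpl55, Mrpl58, Mrps15, Mrps16, Mrps17, Mrps18c and Mrps21. For Mrpl47 the probes disagreed: the probe used had means of 7.63, 7.82 and 7.48 in GMP, PreGr and Gr, and the other had 8.15, 7.33 and 6.57. The head-to-head pair Mrpl46 and Mrps11 was called lower at both steps. Members with the YY1 core in the window had a median change of -0.64 from GMP to PreGr (n = 12) against -0.40 without it (n = 56), and -0.57 against -0.50 from PreGr to Gr. With the ETS core the medians were -0.41 (n = 24) against -0.42 without it (n = 44) at the first step and -0.57 against -0.51 at the second. With the short NRF1 motif they were -0.315 (n = 8) against -0.428 without it (n = 60) at the first step and -0.461 against -0.521 at the second. Whether members with and without a motif differed was not tested, and the same split was not made over all genes.

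The member median of the 3 Gr arrays had an SD of 0.254, against 0.231 in LT-HSC and less in the other populations. The 17 bacterial-type small subunit genes had a smaller SD in Gr (0.125) than in LT-HSC (0.252). Gr 1 was the highest of the 3 for 68 members and Gr 3 the lowest for 57. The median of the cytosolic ribosomal protein genes took the same order, at 12.54, 12.13 and 11.87. Granulocyte-monocyte progenitor markers had a median of 9.80, 8.87 and 8.76 in Gr 1, 2 and 3, against 10.32 to 11.20 in PreGr, and all 6 were called lower in Gr. Their summed linear level was 7784, 4468 and 3232 in the Gr arrays and 12760 to 18380 in PreGr. Markers of eosinophils, basophils and mast cells had a median of 9.31, 8.37 and 7.09 in the Gr arrays. The part of these genes in the members' values was not tested, and without Gr 1 54 members were called in Gr against PreGr.

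The rest of the mitochondrial translation machinery, from lists of known genes, held genes called lower at both steps in every list. Of all genes 11% were called lower in PreGr, and 14% lower and 12.5% higher in Gr. Some calls in a list can be met at these shares, and no list was tested against them. Among mitoribosomal subunits with other names 3 of 4 were called lower in PreGr, with Ptcd3 at -1.32, Dap3 at -0.60 and Gadd45gip1 at -0.46, and 3 of 4 in Gr, with Chchd1 at -1.37, Gadd45gip1 at -0.78 and Ptcd3 at -0.67. Translation factors were lower in 7 of 15 genes in PreGr, led by Mrrf, the ribosome recycling factor (-1.38), Gfm1, an elongation factor (-1.03), and Mtif2, the initiation factor (-0.97). In Gr 8 of 15 were lower, led by Lrpprc, which stabilises mitochondrial mRNAs (-1.33), Guf1 (-1.29) and the release factor Mtrf1 (-1.19). Mitochondrial aminoacyl-tRNA synthetases, which charge the tRNAs, were lower in 10 of 16 genes in PreGr (Yars2 -1.39, Nars2 -1.05, Iars2 -0.92) and in 4 of 16 in Gr (Rars2 -1.26, Fars2 -0.91, Cars2 -0.54). Assembly and rRNA modification factors were lower in 6 of 25 genes in PreGr (Fastkd2 -1.43, Tfb1m -1.06, Gtpbp10 -0.98). In Gr 10 were lower and 3 higher, with Gtpbp10 at -1.36, Fastkd2 at -1.16 and Noa1 at -1.10. Genes of mitochondrial DNA maintenance and transcription were lower in 4 of 10 in PreGr (Top1mt -1.45, Tefm -0.87, Tfb2m -0.79). In Gr 3 of 10 were lower: Tfam, which packages mitochondrial DNA and acts in its transcription, at -1.14, Ssbp1 at -0.72 and Mgme1 at -0.56.

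Cytosolic ribosomal proteins, the subunits of the ribosome outside mitochondria, were mostly not called at the first step. In PreGr 4 of 53 were called lower, below the 11% of all genes, with a median change of -0.10 against -0.42 for the members. By another measure they were above all genes: in 17 of 53 (32.1%) every PreGr array lay below every GMP array, against 16.7% of all genes. A change above 0 was seen in 8 of 53, and in 10463 of all 19939 genes. The changes were -0.90 for Rpl14, -0.86 for Rpl12 and -0.38 for Rpl6. Within set 5 alone 1 of 53 was called. In Gr 35 of 53 were called lower, against 14% of all genes, with a median of -0.38. The largest changes were Rplp1 at -1.49, Rpl10a at -1.43 and Rpl14 at -1.32. The difference between the lists was not tested.

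**Figure D5:**
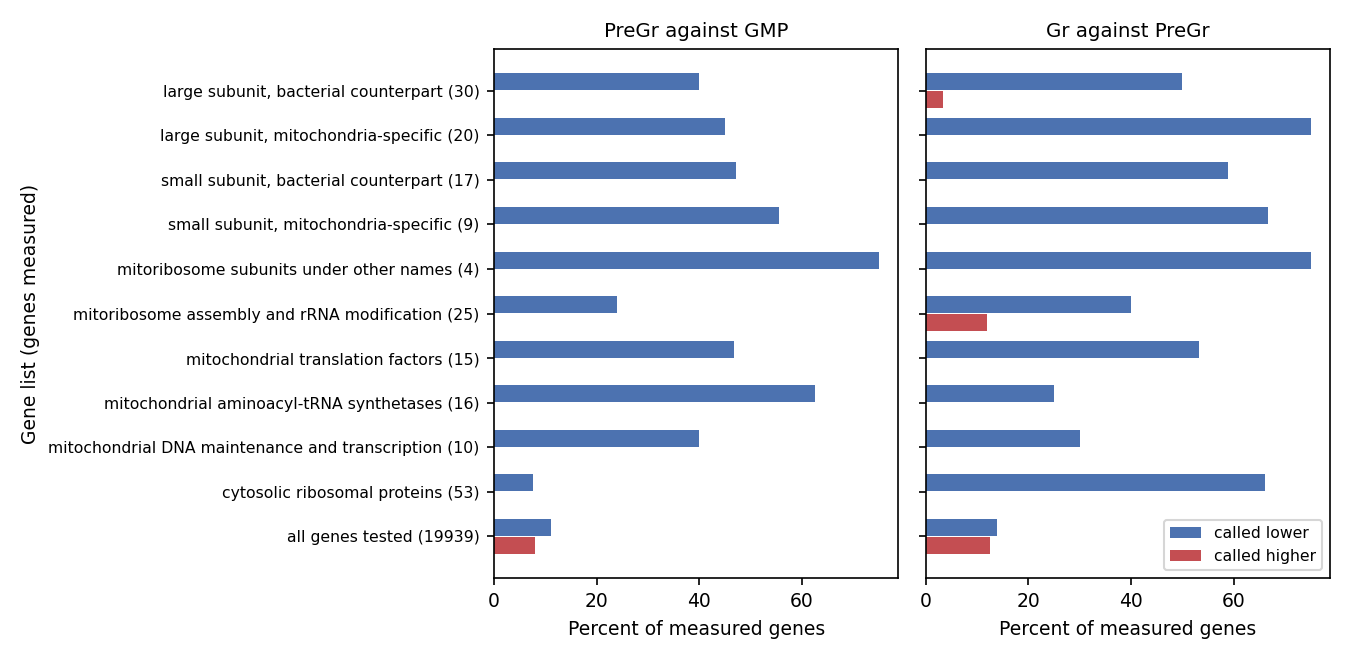
Percent of the measured genes of each list called lower (blue) or higher (red) in PreGr against GMP (left) and Gr against PreGr (right); the number of genes measured is in parentheses. All genes tested reach 11% lower on the left and 14% on the right, and cytosolic ribosomal proteins are below that level on the left and above it on the right.

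Upstream, MPP2, the megakaryocyte-biased progenitor, was compared with ST-HSC. Of 77 members 11 were called higher and 1 lower, where 10.8% of all genes were called, 4.87% higher and 5.95% lower. The median change was 0.27 against 0.07 over all genes. A change above 0 was seen in 68 members and in 12641 of all 19939 genes. All MPP2 arrays lay above all ST-HSC arrays in 25 members, against 16% of all genes. Without a set block 6 members were called, all among the 11, where 6.58% of all genes were called. The count was 6 without ST-HSC 1, 7 without MPP2 1, and 20 without MPP2 3 or without Gr 1.

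Mrpl18, a large subunit protein with a bacterial counterpart, rose most in MPP2. It was at 9.16, 9.56 and 9.42 in ST-HSC and 11.09, 10.29 and 10.23 in MPP2, with MPP2 1 well above the other arrays. The groups did not overlap (change 1.16, SE 0.206, adjusted p = 0.000492). Mrpl46, specific to the mitochondrial large subunit, was at 8.61, 9.04 and 8.63 in ST-HSC and 9.89, 9.67 and 9.21 in MPP2. It changed by 0.83 (SE 0.176, adjusted p = 0.00264), again without overlap. The calls for Mrpl18 and Mrpl46 held when any array was left out. Mrps25 rose by 0.64, Mrps26 by 0.64, Mrpl58, a release factor built into the large subunit, by 0.61, Mrpl34 by 0.58 and Mrpl15 by 0.57, with adjusted p from 0.0115 to 0.029, and each of these calls was lost without 1 of 2 to 4 of the arrays compared (highest adjusted p = 0.129). The other calls were Mrpl14, Mrpl28, Mrpl49 and Mrps18b. Mrpl1 went the other way, at 8.10, 7.75 and 8.21 in ST-HSC and 7.42, 7.51 and 7.35 in MPP2. Its change was -0.59 (SE 0.158, adjusted p = 0.0161), and it was not called without ST-HSC 1 or ST-HSC 3 (highest adjusted p = 0.0856). Tufm and Tsfm, the mitochondrial elongation factors, rose by 0.75 and 0.63, and Mettl15 and Rbfa, which act in small subunit assembly, by 0.81 and 0.43. The changes of Nars2 and Rars2 were -0.87 and -0.66, and that of Twnk, the mitochondrial DNA helicase, was -0.50. None of 53 cytosolic ribosomal protein genes was called, and B and plasma cell markers in MPP2 had a summed linear level of 1144 to 3719 against 825 to 984 in ST-HSC. Megakaryocyte markers were called higher in 3 of 4, at a summed 3665 to 4297 against 1243 to 2016, and eosinophil, basophil and mast cell markers in 2 of 5, and the part of either in the members' values was not tested.

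CMP were compared with MPP4, the lymphoid-biased progenitor. There were 9 members called higher and none lower, where 7.23% of all genes were called, 4.41% higher and 2.82% lower. The median change was 0.30 against 0.02 over all genes. A change above 0 was seen in 71 members and in 11037 of all 19939 genes. Without a set block 7 were called, 3 of them among the 9, where 5.1% of all genes were called. In 33 members all CMP arrays lay above all MPP4 arrays, against 9.69% of all genes. Markers of other cell types moved as well: 6 of 6 granulocyte-monocyte progenitor, 4 of 4 megakaryocyte, 3 of 5 eosinophil, basophil and mast cell and 2 of 4 erythroid markers were called higher in CMP. The summed linear level of the eosinophil, basophil and mast cell list was 1469 to 2029 in CMP and 397 to 679 in MPP4, and that of the megakaryocyte list 3134 to 3320 and 597 to 732. The part of these cells in the members' values was not tested. The count was 3 without MPP4 3, 4 without CMP 1, 5 without CMP 3, 14 without MPP2 1 or without Gr 3 and 18 without Gr 1.

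Mrps11, a small subunit protein with a bacterial counterpart and the divergent neighbour of Mrpl46, rose most. It was at 8.05, 7.98, 7.99, 7.99 and 8.29 in MPP4 and 8.88, 8.59 and 9.15 in CMP. The groups did not overlap (change 0.86, SE 0.135, adjusted p = 0.000308), and the call held without any single array. Its neighbour Mrpl46 was not called here. Mrpl16, a large subunit protein with a bacterial counterpart, was at 8.67, 9.09, 8.95, 8.34 and 8.73 in MPP4 and 9.52, 9.84 and 9.88 in CMP, a change of 0.84 (SE 0.205, adjusted p = 0.0131) that was not called without MPP4 1, CMP 2 or CMP 3. Mrpl54 rose by 0.75, Mrpl19 by 0.57, Mrpl58 by 0.56, Mrpl45 by 0.52, Mrps35 by 0.50 and Mrpl28 by 0.40, with adjusted p from 0.0109 to 0.0432. Mrpl12 was the other call. The call for Mrpl58 was lost in 13 of 31 fits without 1 array, and those of Mrpl54, Mrpl19, Mrpl45, Mrps35 and Mrpl28 in 2 to 4 (highest adjusted p = 0.197). Mrpl28 and Mrpl58 were called higher in both MPP2 and CMP. Outside the members, Tufm rose by 0.75, Ddx28 and Rbfa, both assembly factors, by 1.26 and 0.73, Gadd45gip1 and Dap3 by 0.59 and 0.43 and Tars2 by 0.40, while 1 of 53 cytosolic ribosomal protein genes was called, Rpl27a at -0.24.

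Few members were called against LT-HSC, and their share with both directions pooled was not above that of all genes called. These comparisons rest on LT-HSC 4, so few calls do not show that the members were alike. MPP3 had 3 called higher and none lower, where 6.65% of all genes were called, 4.33% higher. MPP4 had 2 called higher, where 2.74% of all genes were called, 1.39% higher. Without a set block MPP3 had 3 higher and 6 lower, where 27.5% of all genes were called, and MPP4 had 1 higher and 4 lower, where 24.7% were called. With the replicate number as a block MPP4 had 3 higher and 1 lower. The count for MPP3 was 5 without Gr 1 or Gr 3, and that for MPP4 was 1 without MPP4 4 and 4 without MPP4 5. Mrpl12, which binds elongation factors at the stalk of the large subunit and is known to interact with mitochondrial RNA polymerase, was called in both. Its level was 8.63, 8.74, 8.88 and 8.72 in LT-HSC, 9.04, 9.21 and 9.57 in MPP3 and 9.32, 9.12, 9.05, 9.31 and 9.33 in MPP4. LT-HSC arrays of both sets lay below all arrays of the other populations. The change in MPP3 was 0.85, which is MPP3 3, the highest MPP3 array, minus LT-HSC 4. That in MPP4 was 0.60, the mean of MPP4 4 and MPP4 5 minus LT-HSC 4. The call in MPP4 was lost without MPP4 4 (adjusted p = 0.0775). LT-HSC had the lowest Mrpl12 mean of all populations. Mrpl28 was at 8.53, 8.84, 8.90 and 7.89 in LT-HSC, and its changes of 0.82 in MPP3 and 0.62 in MPP4 rest on LT-HSC 4, the lowest of these arrays. Without the set block its MPP4 change was -0.02. Mrps12, a small subunit protein of the decoding centre, was at 9.51 in LT-HSC 4 and 10.45 in MPP3 3, a change of 0.94 (SE 0.276, adjusted p = 0.042). That call was lost without GMP 1, GMP 2 or GMP 3 (highest adjusted p = 0.0517).

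In 4 comparisons no member was called in the limma fit. These were ST-HSC against LT-HSC, MPP3 against ST-HSC, MPP2 against MPP3 and GMP against CMP. Of all genes 1.47%, 3.12%, 1.06% and 1.32% were called, in that order. An unadjusted p under 0.05 was met by 8, 10, 11 and 6 of the 77 members. Of all 19939 genes 3418, 2339, 2710 and 2425 met it, so these counts do not single out the members. The median changes were -0.06, 0.15, 0.11 and 0.07, against 0.09, -0.01, 0.06 and 0.02 over all genes. Without a set block ST-HSC against LT-HSC had 1 member called higher and 17 lower, where 22.8% of all genes were called, and GMP against CMP had 3 higher and 1 lower, where 11.7% were called. In GMP against CMP, Mrps11 had the smallest adjusted p of the members at 0.0799, with 8.40, 8.28, 8.46 and 8.13 in GMP, below all CMP arrays. The number of arrays limits the precision of all these values.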

How the data were processed

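RNA of sorted mouse bone marrow populations was measured on 31 Affymetrix gene arrays. RMA, named without a version in the submitters' processing notes, gave the log2 values the authors deposited, which range from 1.39 to 14.29. The platform annotation names a single gene for 21789 of 35557 probes, more than 1 for 1621 and no gene for 12147. Among the first, 21698 matched the RefSeq gene table (GRCm38.p6) used for symbols. Sequence shared between probes and other genes was not examined.

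All probes were quantile normalized over arrays and a gene with more than 1 probe (998 genes) was read from its brightest, leaving 19939 genes. limma 3.58.1 in R 4.3.3 (lmFit, contrasts.fit, eBayes) fitted 1 mean per population and a term for each array set, with 18 degrees of freedom left, or 22 when sets were ignored. Such a term takes a gene's offset in a set to be equal for all populations. Arrays were put in 1 set where 2 or more identical values link them. Calls used a Benjamini-Hochberg adjusted p under 0.05 over all genes in each comparison, two-sided. The p-values measure the spread between these arrays. Within a population arrays correlated at 0.961 to 0.995 across genes. The fit was tested on simulated data. Python 3.11.15 and matplotlib 3.10.9 made the plots.

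The members, gene lists, comparisons and tests were chosen with earlier results of these data known. Named were, in each comparison, up to 8 called members and up to 3 called genes of each other list with the largest change, pathway genes in the 4 comparisons with most member calls. The rule also named the 4 members with the highest and lowest level, which are left out because levels of different probes cannot be compared. Mrpl33, Mrps21 and Mrpl10, the other calls listed and Mrps11 in GMP against CMP were added after their values were seen. Alternatives were no set block, the deposited values with and without it, the replicate number as a block, the mean of all probes, the dimmest genes left out, arrays of 1 set alone and each array left out. The replicate numbers met the rule used for pairing only for MPP4 against LT-HSC, where deviations of same-numbered arrays correlated at 0.126 to 0.271 over 4 pairs. The deviations still held the array set, and LT-HSC 4 and MPP4 4 share set 2. Pairing and set therefore cannot be told apart there. With the replicate block that comparison had 3 members called higher and 1 lower instead of 2 higher.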

Additional observations from a re-analysis of the deposited data

Results flagged for a closer look

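In 23 groups of 4 or 5 arrays, formed by the member median and the named members, the highest and lowest array was set against the others by Dixon's test, which chance passes in about 1 in 20 groups. A single array stood apart. Mrps11 was at 8.29 in MPP4 5, while the other MPP4 arrays lay between 7.98 and 8.05. MPP4 5 belongs to array set 2 and enters the change of Mrps11 from MPP4 to CMP only through the spread.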

How the results depend on the processing

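Both granulocyte steps kept their direction in every alternative. PreGr against GMP ranged from 30 to 40 members called when each array was left out, and Gr against PreGr from 26 to 54, while on the deposited values without a set block they had 4 and 22 calls. Without a set block the calls were 18 for ST-HSC against LT-HSC, 9 for MPP3 against LT-HSC (3 higher, 6 lower, a reversed balance), 5 for MPP4 against LT-HSC (1 higher, 4 lower, also reversed), 6 for MPP2 against ST-HSC and 4 for GMP against CMP. Deposited values with the set block gave 1 for MPP3 and 0 for MPP4 against LT-HSC, and 27 for CMP against MPP4. Deposited values without it gave 58, 36 and 4 for ST-HSC, MPP3 and MPP4 against LT-HSC. There the median of all genes shifted by 1.32, 1.06 and 0.54. The same values gave 0 for MPP2 against ST-HSC, 2 for CMP against MPP4 and 4 for GMP against CMP. Counts in this section, and those above with single arrays left out, are given without the share of all genes called in the same fit. They therefore do not single out the members. Leaving out the dimmest genes gave 1 call for ST-HSC against LT-HSC. Arrays of 1 set alone gave 5 for MPP2 against ST-HSC, 1 for MPP3 against ST-HSC and 23 for CMP against MPP4. The replicate block gave 4 for MPP4 against LT-HSC and 1 for GMP against CMP, and could not be estimated for ST-HSC or MPP3 against LT-HSC. Leaving out each array gave 0 to 1 calls for ST-HSC against LT-HSC, MPP3 against ST-HSC, MPP2 against MPP3 and GMP against CMP, 2 to 5 for MPP3 and 1 to 4 for MPP4 against LT-HSC, 6 to 20 for MPP2 against ST-HSC and 3 to 18 for CMP against MPP4. Comparisons that rest on LT-HSC 4, MPP3 3 or GMP 4 could not be fitted without them. Mrpl28 reversed against LT-HSC, to -0.0421 for MPP3 on deposited values without a set block, relative to all genes, and for MPP4 to -0.28 there and -0.0158 without a set block. Rpl27a in CMP against MPP4 reversed to 0.113 on deposited values without a set block. The balance of the cytosolic ribosomal calls in CMP against MPP4 reversed to 3 higher on deposited values with the set block and on arrays of 1 set, 1 higher with the mean of probes, and 2 of 3 higher without Gr 1 or Gr 3. That of the translation factors in MPP2 against ST-HSC reversed without MPP2 3, to 5 calls with 3 lower. The cause of these shifts was not tested.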

Other observations

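Members with a pair of probes gave a further reading of the same genes. For Mrps5 the probe used had means of 9.39, 8.54 and 7.57 in GMP, PreGr and Gr and the other 8.87, 7.90 and 7.40. For Mrps33 the values were 11.44, 10.68 and 10.10 on the probe used and 11.05, 10.41 and 9.77 on the other. Mrps36 had 8.21, 7.59 and 6.73 against 7.91, 7.25 and 6.34, and Mrpl23 had 10.68, 10.06 and 9.89 against 10.66, 9.99 and 9.84. Both probes of Mrpl27, Mrpl41 and Mrpl51 also had a lower mean in Gr than in GMP. Over GMP, PreGr and Gr, Mrpl47 was the gene whose probes differed in order, as given above. Other populations changed order in further pairs. For Mrps5 GMP and CMP were at 9.39 and 9.18 on the probe used and 8.87 and 9.19 on the other. For Mrps33 they were at 11.44 and 11.34, and 11.05 and 11.18. For Mrpl51 LT-HSC and ST-HSC were at 10.43 and 10.68 on the probe used and 8.90 and 8.11 on the other. The population with the highest mean can thus depend on the probe.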
